A study of Mus musculus with 8 samples.

Results

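The D cyclins, their kinases and the inhibitors of these kinases were measured in Lgr5-GFP+ intestinal stem cells of 8 mice. The set held 10 genes, which were taken by symbol and identifier from the 53801 genes of the count table: the D cyclins Ccnd1, Ccnd2 and Ccnd3, the kinases Cdk4 and Cdk6, the Cip/Kip inhibitors Cdkn1a, Cdkn1b and Cdkn1c, the INK4 locus Cdkn2a, and Rb1. Of these, 9 had a row in the table of counts divided by size factors and passed the filter on low counts, and 1, Cdkn2a, had 0 counts in every library and was not tested. All mice carried Lgr5-EGFP-IRES-CreERT2 and a stabilized β-catenin (β-catGOF) that is produced in Lgr5+ cells after tamoxifen. They were injected at 4 to 6 weeks of age with 50 mg/kg of tamoxifen on 3 consecutive days. Crypt cells were stained for EpCAM, CD45 and CD24 and sorted 10 days after the induction. The 4 mice labelled β-catGOF; Mll1-/- (J_7075, J_7096, J_7135 and J_7136) lack both Mll1 alleles in the recombined cells, and the 4 labelled β-catGOF; Mll1+/- (J_7079, J_7100, J_7134 and J_7139), the controls, lack 1. The same Lgr5 allele drives Cre and GFP, so recombination and sorting both depend on Lgr5 activity, and 1 library was made from a pool of sorted cells of each mouse.

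The members act at the restriction point of the cell cycle, where a cell commits to DNA replication. Mitogen and Wnt signals raise the D cyclins, which bind Cdk4 or Cdk6, and the active kinases phosphorylate the retinoblastoma protein so that it releases E2F transcription factors. Cdkn1a (p21), Cdkn1b (p27) and Cdkn1c (p57) bind cyclin-CDK complexes, while the INK4 proteins, among them p16 from Cdkn2a, bind Cdk4 and Cdk6 alone. In the intestinal crypt, cycling is confined to stem cells and progenitors, and p21 and p27 are known from cells that leave the cycle. In bulk libraries such as these, fewer cells of a type and less RNA per cell cannot be told apart.

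The promoter sequences are given for Cdkn1a, which had the larger log2 fold change of the 2 members whose genotypes did not overlap, and for the member with the highest level, Cdk4. Each run holds the 250 bases before a RefSeq start on GRCm38.p6, and capitals mark GC boxes (GGGCGG) and the TCF motif (CTTTGA), searched on both strands.
Cdkn1a upstream start, chr17:29090729-29090978, plus strand: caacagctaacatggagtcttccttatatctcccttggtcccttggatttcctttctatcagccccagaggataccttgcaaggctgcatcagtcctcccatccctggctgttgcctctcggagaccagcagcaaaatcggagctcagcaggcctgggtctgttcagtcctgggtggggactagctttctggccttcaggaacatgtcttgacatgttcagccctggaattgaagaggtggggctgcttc
Cdkn1a downstream start, chr17:29093519-29093768, plus strand: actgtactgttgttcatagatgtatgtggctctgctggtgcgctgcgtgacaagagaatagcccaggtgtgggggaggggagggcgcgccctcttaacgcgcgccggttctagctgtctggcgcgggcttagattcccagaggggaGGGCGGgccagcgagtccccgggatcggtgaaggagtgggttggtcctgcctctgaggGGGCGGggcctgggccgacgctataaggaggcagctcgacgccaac
Cdk4, chr10:127063285-127063534, plus strand: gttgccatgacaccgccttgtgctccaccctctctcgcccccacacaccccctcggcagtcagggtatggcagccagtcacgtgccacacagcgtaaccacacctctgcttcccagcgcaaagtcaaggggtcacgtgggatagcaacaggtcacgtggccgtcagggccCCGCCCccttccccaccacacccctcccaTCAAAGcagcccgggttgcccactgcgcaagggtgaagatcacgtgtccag
The window before the upstream start of Cdkn1a held neither motif, whereas that before its downstream start held 2 GC boxes, whose first bases lie 104 and 46 bases before the start. The Cdk4 window held 1 GC box at 80 bases and 1 TCF motif at 51 bases before the start. Among 32851 windows of this length before RefSeq starts, 32.7% held a GC box and 13.8% held the TCF motif, so the matches describe these letters and not a bound site. An E2F motif (TTTGGCGC), present in 0.417% of windows, was in none of the 9 windows found for 6 members (Ccnd3, Cdk4, Cdk6, Cdkn1a, Cdkn1b and Cdkn2a). A TATA motif (TATAAA, 12.4% of windows) was found before Cdk6 alone, 103 bases before the start.

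Depth was even, with 14468751 to 16847793 counts on genes per library, of which mitochondrial genes held 17.1 to 30.1%. The sort matched those of its markers that were examined, which leave out CD24. Lgr5 lay between 215 and 308 CPM and Epcam between 1260 and 1700 CPM, while Ptprc, which encodes CD45, stayed at or under 0.957 CPM. CPM are the counts of a gene scaled to a fixed total per library with TMM, which adjusts for differences in library composition. Kmt2a, which encodes Mll1, was at 63.5 ± 10.7 CPM in the libraries labelled Mll1-/- and at 53.8 ± 7.45 CPM in the controls (SD, n = 4 each; log2 fold change 0.24, standard error 0.17, adjusted p = 0.710, edgeR, and 0.12 without J_7135), so that the libraries are named by their labels. These counts cover the whole gene and not the deleted exons. Library J_7135 stood apart: its closest library had a Spearman correlation of 0.909 with it, whereas every other library had a partner at 0.947 or more, and values that move by more than 1.5 times without it are given both ways. The library numbers of the count table form 2 runs, J_7075, J_7079, J_7096 and J_7100 in run 1 and the other mice in run 2, with 2 libraries of each genotype in each.

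Expression was compared between the genotypes with edgeR's quasi-likelihood test over 16445 genes, and an adjusted p (Benjamini-Hochberg over all of them) under 0.1 was taken as a difference. Of the 9 members tested, 0 passed this threshold in either direction, beside 0.0851% of all genes tested (14 genes). An unadjusted p under 0.05 was reached by 2 members, Ccnd1 and Cdkn1a, both higher in the libraries labelled Mll1-/-, where 5.4% of all genes reached it in this direction, 3.75% in the other and 9.15% in either. In these 2 members every library labelled Mll1-/- lay above every control library, as in 3.34% of the genes tested (6.28% in either direction), and in 0 members did the groups separate the other way (2.94% of genes). With the DESeq2 Wald test, both genes passed the threshold (2.45% of all genes with an adjusted p did so, and 2.49% with a prior on the fold change), and with limma-voom 0 of the 9 members did (0.626% of genes). Of the 9 log2 fold changes, 4 were above 0 and 5 below, with a median of -0.20, while 50.8% of all genes were above 0 and their median was 0.008. Without J_7135 the median of the members was -0.06, with 4 again above 0.

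**Figure D1:**
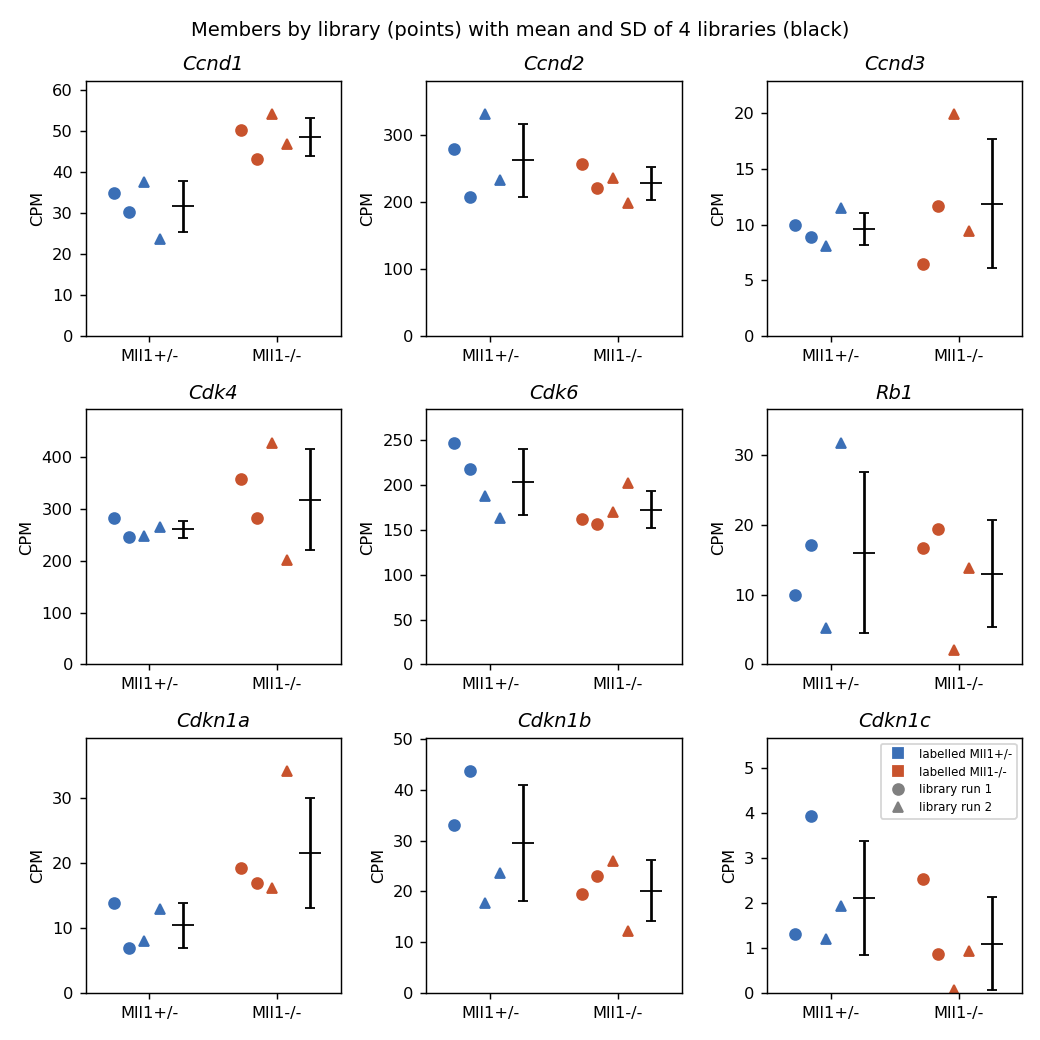
CPM (vertical axes, each starting at 0) of the 9 members with counts in the 4 libraries of each genotype; circles are library run 1, triangles run 2, and the black bars are the mean ± SD. Ccnd1 and Cdkn1a are the members in which the genotypes do not overlap (lowest Mll1-/- library 43.2 CPM against a highest control of 37.6 CPM for Ccnd1, and 16.2 against 13.8 CPM for Cdkn1a).

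Among the D cyclins, Ccnd1 was higher in the libraries labelled Mll1-/-, Ccnd2 was by far the most abundant and overlapped between the genotypes, and Ccnd3 was low in both. Ccnd1 encodes cyclin D1, a target of β-catenin and TCF in colon cancer cells (ENSMUSG00000070348, chromosome 7, 144929931 to 144939925, minus strand). It was at 50.2, 43.2, 54.1 and 46.8 CPM in J_7075, J_7096, J_7135 and J_7136. The controls J_7079, J_7100, J_7134 and J_7139 had 34.9, 30.4, 37.6 and 23.6 CPM. The 4 libraries labelled Mll1-/- were all above the 4 controls, with J_7135 the highest and J_7139 the lowest. With means of 48.6 ± 4.66 and 31.6 ± 6.15 CPM (SD, n = 4 each), the estimated log2 fold change was 0.62 (standard error 0.18, 95% interval 0.21 to 1.03, unadjusted p = 0.00708, adjusted p = 0.365, edgeR). Within run 1 the difference of the mean log2 CPM was 0.51, and within run 2 it was 0.75. Without J_7135 the log2 fold change was 0.56. In DESeq2 the log2 fold change was 0.63 with an adjusted p of 0.0636, and over all alternatives the adjusted p of Ccnd1 ran from 0.0609 to 0.635. Of its exonic bases, 23.4% overlap Oraov1 on the opposite strand, and reads on the shared bases were left out of both genes. Oraov1 itself lay between 7.62 and 10.7 CPM in the libraries labelled Mll1-/-, within the range of the controls.

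Ccnd2 encodes cyclin D2 (chromosome 6, 127125162 to 127152193, minus strand). Its level was 256.7, 220.2, 236.5 and 198.1 CPM in J_7075, J_7096, J_7135 and J_7136. The controls J_7079, J_7100, J_7134 and J_7139 had 278.6, 207.7, 331.0 and 232.2 CPM. The control J_7134 was the highest and J_7136 the lowest, and the groups overlapped. Between the genotypes the log2 fold change was -0.20 (standard error 0.16, 95% interval -0.56 to 0.15, adjusted p = 0.743), with -0.02 in run 1 and -0.36 in run 2.

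Ccnd3, cyclin D3 (chromosome 17, 47505051 to 47599691, plus strand), was measured at 6.49, 11.7, 19.9 and 9.46 CPM in J_7075, J_7096, J_7135 and J_7136. In J_7079, J_7100, J_7134 and J_7139 it was at 9.93, 8.86, 8.10 and 11.5 CPM. The library J_7135 held the highest value, and the remaining libraries labelled Mll1-/- lay around the controls. Its log2 fold change of 0.31 (standard error 0.34, 95% interval -0.46 to 1.08, adjusted p = 0.837) was -0.06 without J_7135, and it was -0.10 in run 1 and 0.50 in run 2.

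The composition of the D cyclins was then compared on the RPKM scale, in which TMM-scaled counts are divided by the exonic length of the gene. The full length was used, although reads on bases shared with other genes were left out. Such bases were 23.4% of the exonic bases of Ccnd1, 7.9% of Ccnd2 and 4.1% of Ccnd3, so the shares set Ccnd1 too low. Ccnd2 made up 64.6 to 70.5% of the summed D cyclin RPKM in the libraries labelled Mll1-/- and 74.7 to 79.8% in the controls. Ccnd1 made up 28.8 ± 1.81% in the former and 18.9 ± 2.39% in the latter (SD, n = 4 each). The lowest share in the former was 27.1%, and the highest in the latter was 21.8%. The shares of Ccnd1 and Ccnd2 did not overlap between the genotypes, which includes the Ccnd1 difference given above and is no separate evidence of it. Ccnd3 held 1.91 to 5.83%. The summed D cyclin RPKM was 35.9 ± 3.43 in the libraries labelled Mll1-/- and 35.7 ± 6.75 in the controls (SD, n = 4 each), so the sums overlapped.

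**Figure D2:**
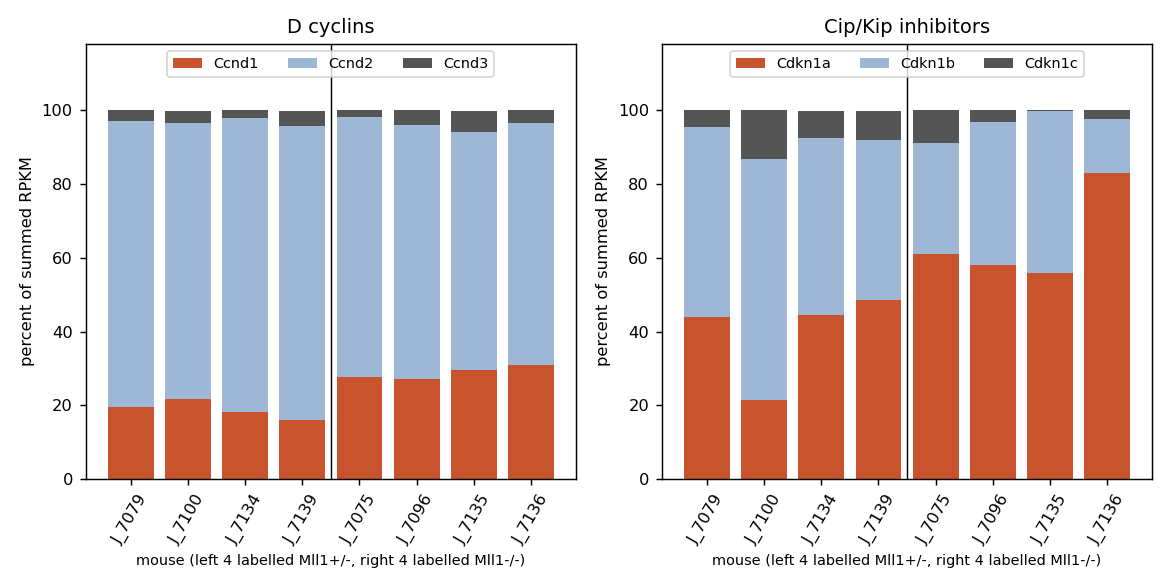
Share of each gene (percent of summed RPKM, vertical axis) among the D cyclins (left) and the Cip/Kip inhibitors (right) in each mouse, controls left and Mll1-/- right of the line. Ccnd1 holds at least 27.1% of the D cyclin sum in the libraries labelled Mll1-/- and at most 21.8% in the controls, and Cdkn1a holds at least 56.0% of the Cip/Kip sum in the former and at most 48.6% in the latter. These shares include the differences of Ccnd1 and Cdkn1a themselves and are no separate evidence of them. They use the full gene length, although reads on bases shared with other genes were left out.

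Neither kinase passed the threshold, and the genotypes overlapped for both. Cdk4, the kinase partner of the D cyclins with the highest level here (chromosome 10, 127063534 to 127067920, plus strand), was at 358.3, 283.4, 428.2 and 201.6 CPM in J_7075, J_7096, J_7135 and J_7136. The controls J_7079, J_7100, J_7134 and J_7139 had 282.7, 246.3, 248.1 and 266.3 CPM. The controls lay close together, with a coefficient of variation of 6.57% against a median of 23.7% over all genes tested, while the libraries labelled Mll1-/- held both the highest and the lowest value (30.7%). This median covers genes of all levels, and Cdk4 lay above 95.4% of them, so the 2 values are not matched for level. For Cdk4 the log2 fold change was 0.29 (standard error 0.20, 95% interval -0.18 to 0.75, adjusted p = 0.724), with 0.27 in run 1 and 0.19 in run 2. It was 0.11 without J_7135. Of the exonic bases of Cdk4, 19.7% overlap Tspan31 on the opposite strand, and reads there were left out.

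Cdk6, the second D cyclin kinase (chromosome 5, 3341485 to 3531008, plus strand), was at 162.3, 156.0, 170.3 and 201.8 CPM in J_7075, J_7096, J_7135 and J_7136. In J_7079, J_7100, J_7134 and J_7139 it was at 247.1, 217.7, 187.4 and 162.7 CPM. The first 2 controls were the highest libraries, and the other controls overlapped the libraries labelled Mll1-/-. The log2 fold change of -0.24 (standard error 0.15, 95% interval -0.58 to 0.10, adjusted p = 0.674) was -0.54 in run 1 and 0.09 in run 2. Cdk4 made up 81.1 to 91.5% of the RPKM of both kinases in the libraries labelled Mll1-/- and 83.0 to 87.6% in the controls.

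Of the Cip/Kip inhibitors, Cdkn1a was higher in every library labelled Mll1-/-, and Cdkn1b and Cdkn1c overlapped with means below those of the controls. Cdkn1a encodes p21, a target of p53 that inhibits cyclin-CDK complexes and is expressed in differentiating intestinal cells (ENSMUSG00000023067, chromosome 17, 29090979 to 29100722, plus strand). Its level was 19.2, 16.9, 16.2 and 34.1 CPM in J_7075, J_7096, J_7135 and J_7136, and 13.8, 6.96, 7.94 and 12.9 CPM in the controls J_7079, J_7100, J_7134 and J_7139. The library J_7136 was far above the others, and the lowest library labelled Mll1-/-, J_7135, was still above the highest control, J_7079. With means of 21.6 ± 8.44 and 10.4 ± 3.44 CPM (SD, n = 4 each), the estimated log2 fold change was 1.05 (standard error 0.33, 95% interval 0.30 to 1.80, unadjusted p = 0.0111, adjusted p = 0.417, edgeR). Within run 1 the difference in mean log2 CPM was 0.87 and within run 2 it was 1.20. Leaving out J_7136 gave 0.74, and leaving out J_7135 gave 1.16. In DESeq2 it was 1.06 with an adjusted p of 0.0933, and the adjusted p ran from 0.0911 to 0.685 over the alternatives. No other counted gene overlaps its exons, but 9.78% of its 31-base words are found in other genes. AC167363.2, an antisense transcript of GENCODE M21 for which no separate count was used here, shares 6.88% of them. As strand was not used, reads from this transcript and Cdkn1a cannot be told apart there.

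Cdkn1b encodes p27 (chromosome 6, 134920401 to 134925513, plus strand). It was at 19.5, 23.0, 25.9 and 12.1 CPM in J_7075, J_7096, J_7135 and J_7136. In J_7079, J_7100, J_7134 and J_7139 it was at 33.0, 43.7, 17.6 and 23.6 CPM. The 2 controls of run 1 were the highest libraries and J_7136 the lowest, with overlap between the groups. For Cdkn1b the log2 fold change was -0.55 (standard error 0.33, 95% interval -1.28 to 0.18, adjusted p = 0.655), with -0.84 in run 1 and -0.20 in run 2.

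Cdkn1c, which encodes p57 and is expressed from the maternal allele (chromosome 7, 143458339 to 143461050, minus strand), was near the limit of the libraries. It had 43, 15, 1 and 14 counts in J_7075, J_7096, J_7135 and J_7136. The controls J_7079, J_7100, J_7134 and J_7139 had 22, 56, 15 and 30 counts. All libraries but J_7135 held at least 14 counts, and the groups overlapped. Its log2 fold change of -0.94 (standard error 0.86, 95% interval -2.86 to 0.99, adjusted p = 0.787) was -0.53 without J_7135. A further limit is that 30.7% of its exonic bases overlap Gm44732 on the opposite strand.

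Within the Cip/Kip group, Cdkn1a made up 64.5 ± 12.5% of the summed RPKM in the libraries labelled Mll1-/- and 39.6 ± 12.3% in the controls (SD, n = 4 each). The highest share was 83.1% in J_7136 and the lowest 21.4% in J_7100, and the groups did not overlap. This share includes the Cdkn1a difference given above and is no separate evidence of it. Cdkn1b made up 14.5 to 43.8% in the libraries labelled Mll1-/- and 43.4 to 65.5% in the controls. The summed RPKM of the 3 inhibitors was 14.7 ± 2.58 and 12.2 ± 3.00 (SD, n = 4 each), and as a percentage of the D cyclin RPKM it ranged from 33.4 to 57.5% and from 18.2 to 49.6%. Both of these overlapped between the genotypes.

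Cdkn2a encodes p16 and, in another reading frame, p19Arf, and the locus is held silent by polycomb proteins in many young tissues (ENSMUSG00000044303, chromosome 4, 89274471 to 89294653, minus strand). It had 0 counts in all 8 libraries, among 126500714 counts on genes in total. A floor of 3 counts corresponds to 0.162 to 0.241 CPM per library, or 0.138 to 0.205 RPKM, for counting error only. In these libraries Cdkn2a was not detected in either genotype, and no fold change can be given.

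Rb1 encodes the retinoblastoma protein, the main substrate of the D cyclin kinases (chromosome 14, 73183673 to 73325822, minus strand). It was at 16.6, 19.5, 2.00 and 13.8 CPM in J_7075, J_7096, J_7135 and J_7136. The controls J_7079, J_7100, J_7134 and J_7139 had 9.99, 17.1, 5.21 and 31.8 CPM. The lowest values were in J_7135 and J_7134 and the highest in J_7139, all 3 from run 2, so the spread within a genotype was larger than the difference between them. The coefficients of variation were 59.1% and 72.3%, against medians over all genes of 32.0% and 23.7%. The log2 fold change of -0.31 (standard error 0.68, 95% interval -1.83 to 1.22, adjusted p = 0.928) was 0.46 in run 1 and -1.26 in run 2, and it was 0.05 without J_7135 and 0.27 without J_7139.

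**Figure D3:**
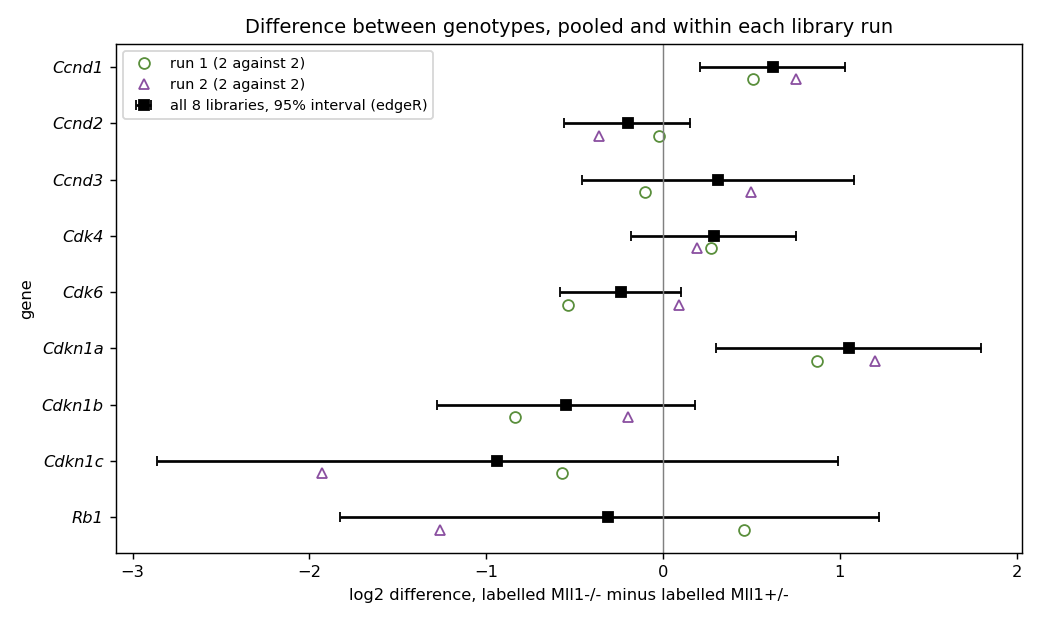
Log2 difference between libraries labelled Mll1-/- and Mll1+/- (horizontal axis) for each member: squares with bars are the edgeR estimate and its 95% interval, unadjusted for the number of genes, and open symbols are the differences in mean log2 CPM within each library run. The intervals of Ccnd1 (0.21 to 1.03) and Cdkn1a (0.30 to 1.80) lie above 0 with both runs on the same side, and the runs of Ccnd3, Cdk6 and Rb1 lie on opposite sides of 0.

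The levels of the members were ordered by their mean RPKM over the 8 libraries. Cdk4 was highest at 89.1 ± 22.1 RPKM and lay above 95.4% of the genes tested. Ccnd2 followed at 26.1 RPKM (range 21.1 to 35.2) and Cdk6 at 13.5 ± 2.29 RPKM (SD, n = 8). The libraries of Cdk4, Ccnd2 and Cdk6 did not overlap with each other, so this part of the order was above the spread between mice. On the full gene length, Ccnd1 (8.52 ± 2.20 RPKM) was below Cdk6 in each of the 8 libraries, although the ranges of these genes overlapped. Reads on bases shared with other genes were left out. Such bases were 23.4% of the exonic bases of Ccnd1 and 2.63% of those of Cdk6. From Ccnd1 on, the neighbors in the order overlapped as well. Ccnd1 was above Cdkn1a (7.19 ± 3.80 RPKM) in 6 of 8 libraries, and Cdkn1a was above Cdkn1b (5.45 ± 2.15 RPKM) in 5 of 8. Rb1 (2.41 ± 1.54 RPKM), Ccnd3 (1.22 ± 0.465 RPKM) and Cdkn1c (0.783 ± 0.589 RPKM) were the lowest of the members with counts, and Cdkn1c lay above 16.1% of the genes tested. The range from the lowest to the highest library was wide for Rb1 (15.9-fold) and for Cdkn1c (1 to 56 counts), which both had their lowest value in J_7135, and narrowest for Cdk6 (1.58-fold) and Ccnd2 (1.67-fold). With the length restricted to bases that no other counted gene overlaps, Cdk4 was at 111, Cdk6 at 13.8 and Ccnd1 at 11.1 RPKM. The order of the means of the 10 members stayed as given. The order within single libraries was not examined on this length.

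**Figure D4:**
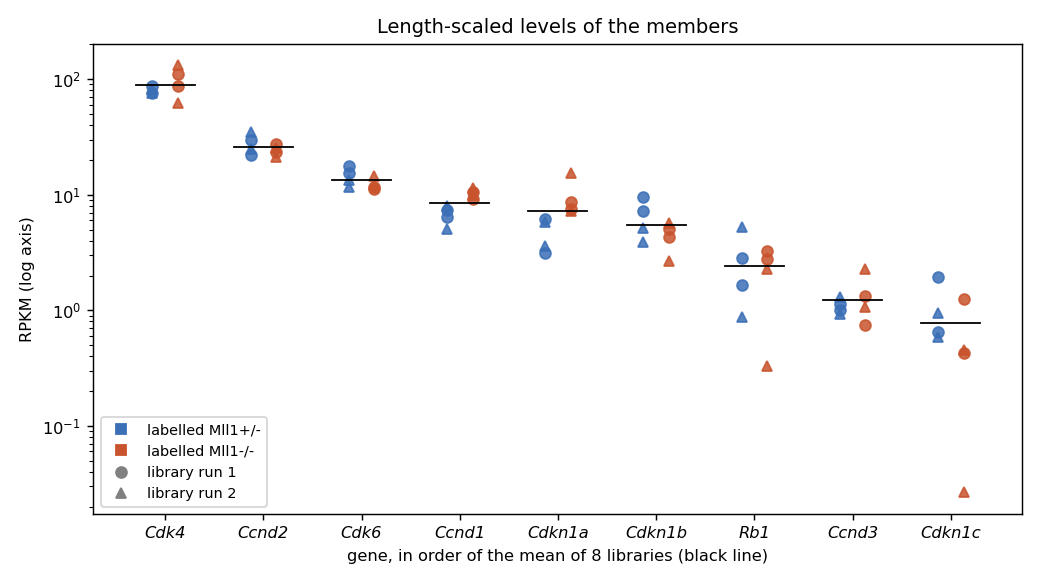
RPKM (vertical log axis) of the 9 members with counts, in the order of their mean over 8 libraries (black line); blue points are control libraries, red points libraries labelled Mll1-/-, circles run 1 and triangles run 2. Cdk4 (62.0 to 131.8 RPKM), Ccnd2 (21.1 to 35.2 RPKM) and Cdk6 (11.2 to 17.7 RPKM) form separate levels, and J_7135 is the low point of Rb1 (0.333 RPKM) and Cdkn1c (0.0265 RPKM).

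Across the 8 libraries, the log2 CPM of Ccnd1 and Cdkn1a had a Pearson correlation of 0.56 (0.59 over 7 libraries without J_7135), which includes the difference between the genotypes. Cdkn1a and Cdkn1b had a correlation of -0.67 (-0.69 without J_7135). The extremes over the 36 pairs of members were Cdkn1c with Rb1 (0.78) and Cdkn1c with Ccnd3 (-0.83), which were 0.30 and -0.42 without J_7135 and so rest largely on that library. These are descriptions over libraries that share their depth and composition, and no test was made. Of 8913 other genes with a mean of at least 10 CPM, the profile most like that of Ccnd1 was Fam173a (r = 0.980, n = 8), followed by Scrib and Crb3. That most like Cdkn1a was Lmo7 (r = 0.951, n = 8), followed by Irs2 and Vipr1. For Cdk4 it was Cops7a (r = 0.990, n = 8), for Ccnd2 it was Ide (0.949), for Cdkn1b it was Kantr (0.936) and for Rb1 it was Clrn3 (0.976). Each of these was the highest of 8913 correlations over 8 libraries, so a high value follows in part from the choice. None was tested, and none is given without J_7135.

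The genes around the members in the G1/S network were read from the same fit, in 8 lists of 83 genes of which 80 were tested. None of these passed the threshold (0 of 80, edgeR), beside 0.0851% of all genes tested. Of the 80, 59 were higher and 21 lower in the libraries labelled Mll1-/-, beside 50.8% of all genes higher. Their median log2 fold change was 0.22, against 0.008 over all genes tested. Without J_7135, 56 were higher and 24 lower, with a median of 0.16. An unadjusted p under 0.05 was reached by 12 of them, 11 higher and 1 lower, beside 5.4% of all genes higher and 3.75% lower. DESeq2 called 3 of the 83, Mcm3, Mcm5 and Fbxw7, all higher (2.45% of all genes with an adjusted p). With limma-voom 0 were called (0.626% of all genes). These lists were chosen with earlier results of these data known, and counts without a set test call nothing particular to a list. The genes named from each list are the 3 with its smallest unadjusted p, so separation of their groups follows in part from this choice. Groups did not overlap in 6.28% of all genes tested.

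Among the other INK4 inhibitors and pocket proteins, all 4 tested genes were above 0 with a median of 0.28, and without J_7135 3 of 4 were, with a median of 0.20. Cdkn2d, which encodes p19Ink4d, was at 6.95 to 12.5 CPM in the libraries labelled Mll1-/- and at 4.19 to 6.59 CPM in the controls (log2 fold change 0.75, standard error 0.28, adjusted p = 0.486). Its groups did not overlap, whereas those of Cdkn2c (0.35, or 0.19 without J_7135) and the pocket protein gene Rbl1 (0.22) did. Cdkn2b, the p15 gene beside Cdkn2a, had 0 to 20 counts per library and was not tested.

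Of the 10 E2F factors and partners, 7 were above 0 with a median of 0.20, and without J_7135 8 were, with a median of 0.12. E2f8, a repressive E2F expressed in S phase, was at 19.2 ± 2.70 CPM in the libraries labelled Mll1-/- and 11.7 ± 3.08 CPM in the controls (SD, n = 4 each; log2 fold change 0.72, adjusted p = 0.449). E2f1, an activator, had a log2 fold change of 1.11 (adjusted p = 0.526) with overlapping groups, and Tfdp2, a dimer partner of E2F, had -0.34 (adjusted p = 0.526) with every library labelled Mll1-/- below every control. Of the 9 genes of the cyclin E and A group, 5 were above 0 (median 0.12). Ccne1, cyclin E1, which acts after the D cyclins, was at 12.7 to 28.6 CPM against 5.09 to 12.3 CPM (log2 fold change 1.00, adjusted p = 0.460). Ccnh of the CDK-activating kinase had -0.47 and the meiotic cyclin gene Ccna1 had -2.96 at 0.376 ± 0.677 against 2.99 ± 3.06 CPM (SD, n = 4 each), both with overlap.

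Of the 16 E2F-controlled S phase genes, 14 were above 0 with a median of 0.25. Mcm3, a subunit of the replicative helicase, was at 92.2 ± 23.1 CPM in the libraries labelled Mll1-/- and 49.0 ± 4.86 CPM in the controls (SD, n = 4 each; log2 fold change 0.91, standard error 0.20, adjusted p = 0.200, edgeR). Mcm5 had 0.77 (adjusted p = 0.282) and the licensing factor Cdt1 had 0.45 (adjusted p = 0.496). The groups of these 3 genes, which have the smallest unadjusted p of their list, did not overlap (6.28% of all genes tested). All 8 proliferation markers were above 0, with a median of 0.38, among them the mitotic kinase gene Plk1 (0.74, adjusted p = 0.467), Top2a (0.37, adjusted p = 0.534) and Aurkb (0.53, adjusted p = 0.607). Without J_7135 the medians of these lists were 0.19 and 0.32, with 15 of 16 and 8 of 8 genes above 0.

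The 11 tested genes that control the turnover of D cyclins and CDK inhibitors had a median of 0.03, with 7 above 0. Without J_7135 this direction turned, with 5 above 0, 6 below and a median of -0.05. Fbxw7, which encodes the receptor subunit of an SCF ubiquitin ligase that targets cyclin E, was at 16.2 to 24.5 CPM against 11.2 to 13.4 CPM in the controls (log2 fold change 0.73, standard error 0.21, adjusted p = 0.352). Cks1b (0.39) and Cul1 (-0.26, or -0.15 without J_7135) overlapped. In the p53 list, 10 of 16 tested genes were above 0 with a median of 0.16 (9 of 16 and 0.09 without J_7135), and Trp53 itself was at 82.9 to 168 CPM against 67.9 to 72.1 CPM (log2 fold change 0.67, standard error 0.22, adjusted p = 0.424). The p53 targets Plk2 (0.89, adjusted p = 0.564) and Ccng1 (-0.54, adjusted p = 0.612) lay on opposite sides of 0. Every library labelled Mll1-/- was below every control for Ccng1, whereas the groups of Plk2 overlapped. Of the 6 chromatin regulators known from the Cdkn2a and Cdkn1b loci, 4 were above 0 (median 0.10), and without J_7135 3 were (median 0.06). Bmi1, a polycomb gene that represses Cdkn2a, was at 17.4 ± 10.8 against 37.0 ± 7.06 CPM (SD, n = 4 each; log2 fold change -1.09, adjusted p = 0.564, with -0.53 in run 1 and -2.33 in run 2), and its groups did not overlap. The list also held Psip1 (-0.27) and Men1 (0.30). Without J_7135 the log2 fold changes of Ccne1, Trp53, Plk2, Plk1, Bmi1 and Psip1 were 0.69, 0.40, 0.44, 0.45, -0.74 and -0.10.

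**Figure D5:**
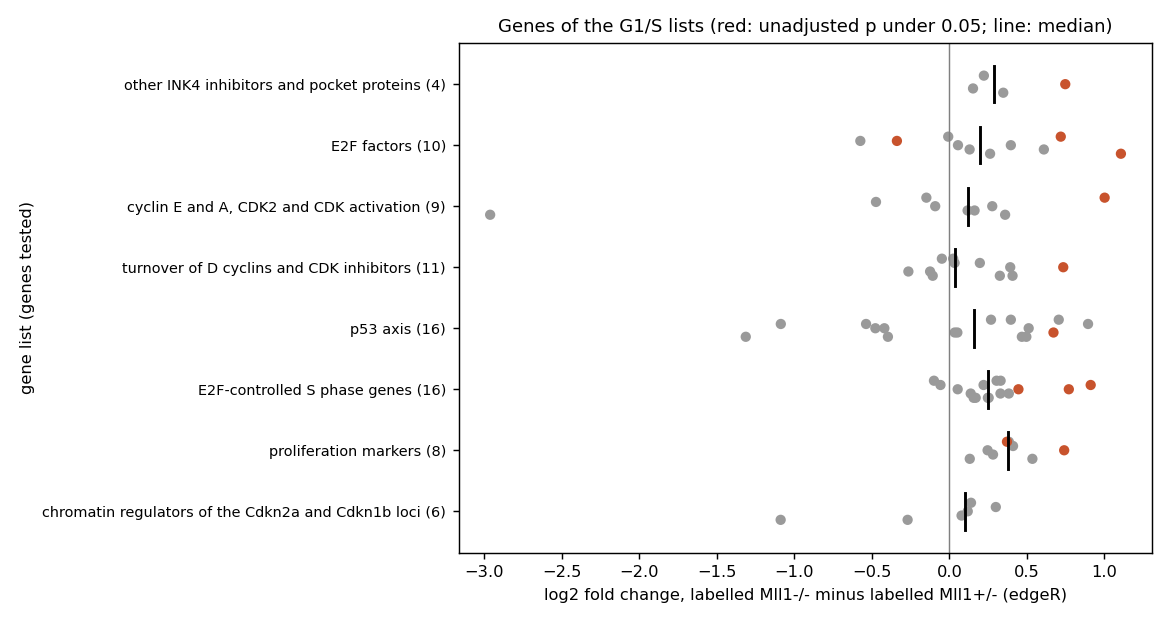
Log2 fold change (horizontal axis, labelled Mll1-/- minus labelled Mll1+/-) of each tested gene in the 8 G1/S lists (rows, with the number of genes tested); red points have an unadjusted p under 0.05 and black lines are the list medians. Medians lie between 0.03 and 0.38, and 0 of the 80 genes passed the adjusted threshold.

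Olfm4 and the summed markers of some cell types did not overlap between the genotypes, as Ccnd1 and Cdkn1a did not. Among all genes tested, 6.28% did not overlap, and the sums were not tested. Of the 10 stem cell markers, 5 were above 0 and 5 below. Their sum, 10880 to 17290 CPM in the libraries labelled Mll1-/- and 21950 to 26040 CPM in the controls, was mostly Olfm4 (8080 to 14400 against 19300 to 22900 CPM), whereas Lgr5 and Smoc2 overlapped. That of 8 goblet cell markers was 520.7 to 1043 CPM against 317.1 to 514.0 CPM, and 7 of these 8 genes were above 0. Enteroendocrine markers were at 7.22 to 9.41 CPM against 9.71 to 72.6 CPM, with 6 of 6 tested genes below 0. These 3 sums did not overlap between the genotypes. The gap was narrow for the goblet (520.7 against 514.0 CPM) and enteroendocrine markers (9.41 against 9.71 CPM). The low tuft cell sum did not overlap either (3.84 to 9.56 against 2.53 to 3.37 CPM). Only 2 of its 6 genes were tested, and both were above 0. The sums of 7 Paneth cell markers (1329 to 2540 against 1964 to 4740 CPM) and of 8 enterocyte markers (578.4 to 856.4 against 735.4 to 838.6 CPM) overlapped. In each of these lists, 6 of the 7 genes tested were below 0. Immune markers stayed at or under 7.22 CPM in sum, mesenchymal and endothelial markers at or under 8.41 CPM, and red blood cell markers at or under 2.33 CPM with Hbb-bt at 0 in every library. The part of Olfm4 and of the goblet, enteroendocrine and tuft cell markers in the Ccnd1 and Cdkn1a differences was not tested. Mitochondrial genes held 17.1 to 27.1% of the counts in the libraries labelled Mll1-/- and 23.3 to 30.1% in the controls.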

How the data were processed

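RNA of sorted Lgr5-GFP+ cells was amplified from polyadenylated transcripts with the Smart-seq2 protocol, without molecular identifiers, so floors cover counting error only. Per the labels, bcl2fastq 2.19.1, GSNAP, featureCounts 1.6.3 and DESeq2 1.22.2 were used with mm10. The authors deposited raw counts per gene of Ensembl release 92 for 53801 genes and 92 spike-in transcripts, counted without strand and with reads on more than 1 gene left out, and the gene length in bases (other column). The spike-in rows stayed out of library sizes. The authors also deposited a signal table of 25485 genes, counts divided by 1 size factor per library and rounded, used here to find the members; Cdkn2a was found by its identifier in the count table.

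Genes past filterByExpr (minimum count 10, minimum total 15) were scaled with TMM and tested with edgeR 4.0.16 (robust quasi-likelihood, two-sided, genotype as the only term, R 4.3.3), and each standard error is the fold change over the root of its F statistic. The threshold of 0.1 is that of the study's methods. Log2 CPM used a prior count of 2. DESeq2 1.42.0, limma 3.58.1 (voom with quality weights), sva 3.50.0 (1 surrogate variable), other scalings and filters, a loess offset on length (span 0.3), a run block, a covariate of Xist above Y-linked transcripts (sex is not labelled) and each library left out were the alternatives, and the restricted gene length was added after seeing the data. The fits were tested on simulated data. Promoters are from RefSeq and 31-base words from GENCODE M21, both on GRCm38. The labels give separate mice, and p-values set the genotype difference against the variation between their libraries. Members and lists were chosen with earlier results of these data known. Named were all members, Kmt2a, and from each list every gene past the threshold and the 3 with the smallest unadjusted p. The likeness of profiles was ranked by Pearson correlation, keeping 3 genes per member. Figures were drawn with matplotlib 3.10.9.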

Additional observations from a re-analysis of the deposited data

Results flagged for a closer look

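Among the 35 genes examined (68 groups of 4 libraries with any counts), 8 values lay far from the other 3 of their genotype by Dixon's criterion, which chance alone meets in about 1 in 20 groups. Cdkn1a in J_7136 was at 34.1 CPM, with the other libraries labelled Mll1-/- at 16.2 to 19.2 CPM. E2f1 in the same library was at 13.9 CPM against 3.78 to 4.98 CPM, and E2f1 in the control J_7134 was at 4.41 CPM against 2.65 to 2.88 CPM. Plk1 was at 62.1 CPM in J_7135 against 30.4 to 34.3 CPM. Ccna1 was at 1.39 CPM in J_7096, with the other libraries labelled Mll1-/- at or under 0.059 CPM. Among the controls, Kmt2a was at 64.9 CPM in J_7100 against 48.9 to 51.2 CPM, Rbl1 was at 72.2 CPM in J_7100 against 42.1 to 46.5 CPM, and Cul1 was at 189 CPM in J_7139 against 124 to 133 CPM.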

How the results depend on the processing

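The number of members past the threshold was 0 in edgeR and limma-voom under the alternatives run, and 2 (Ccnd1 and Cdkn1a) with DESeq2 without and with a prior, where Ccnd1 had log2 fold changes of 0.63 and 0.58 and Cdkn1a 1.06 and 0.85. The G1/S genes called were 0, or 3 with DESeq2 without or with a prior. The 14 genes called among all genes became 8 with upper quartile scaling, 47 with no filter beyond 1 count, 34 with at least 10 counts in every library, 517 and 452 with DESeq2 without and with a prior, 103 with limma-voom, 71 with 1 surrogate variable, 3 with a loess offset on length, and 0 with the run block or the Xist covariate. With 1 library left out they ranged from 0 to 45, and the 45 came without J_7135. The cause was not tested. The log2 fold change turned to -0.02 (limma-voom) and -0.06 (without J_7135) for Ccnd3, and to 0.19 (limma-voom), 0.05 (without J_7135) and 0.27 (without J_7139) for Rb1, and the other members kept their sign under every alternative in which they were tested. Cdkn1c was not tested with at least 10 counts in every library. Without 1 library, Ccnd3 ranged from -0.06 to 0.50, Rb1 from -0.60 to 0.27, Ccnd1 from 0.50 to 0.71, Cdkn1a from 0.74 to 1.21 and Cdkn1c from -1.77 to -0.44. The order of the members by TPM without mitochondrial genes was that by RPKM. No paired analysis was possible because the labels give no replicate number that the genotypes share. Low counts limit what can be said of Cdkn1c (1 to 56 counts) and Cdkn2a (0 counts). The part of depth and of the size of the sorted pools in this was not tested.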
